A study of Mus musculus with 6 samples.

Results

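Sphingosine-1-phosphate (S1P) receptors and the enzymes that make and degrade S1P were followed in EGFP-positive cells sorted from mouse calvaria, the bones of the skull vault. The 8 genes were taken by name from the 23284 genes listed in each library, and 8 of 8 were found. They are the 5 receptor genes S1pr1, S1pr2, S1pr3, S1pr4 and S1pr5, the sphingosine kinase genes Sphk1 and Sphk2, and Sgpl1, the gene of S1P lyase. The cells came from CX3CR1-EGFP mice, a reporter strain whose fluorescence follows Cx3cr1, a chemokine receptor gene of monocytes and of osteoclast precursors. Both groups had received lipopolysaccharide (LPS) at the calvarial periosteum, and no group without LPS was analysed here. One group of 3 libraries was given 10 mg/kg CTLA4-Ig (abatacept), a fusion of CTLA-4 with an antibody Fc part that binds CD80 and CD86, and the other group of 3 libraries was given 10 mg/kg whole human IgG. Cells were sorted 5 days later. The labels do not state sex, age or how many animals made up a library, so p-values measure the spread between libraries.

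S1P is a lipid mediator that stands high in blood and lymph and low inside tissues, and blood cells follow or avoid this gradient through G protein-coupled receptors. Sphingosine kinases form it, phosphatases return it to sphingosine, and the lyase breaks it down irreversibly. In mouse osteoclast precursors S1PR1 is known for attraction towards S1P, and S1PR2 for repulsion from it, so the balance of the pair bears on whether a precursor stays in blood or on bone. The study's title concerns cell movement genes in osteoclast precursors, and the question here is whether genes of S1P sensing and turnover differed between the drug and the control antibody.

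The sorted cells held mixed myeloid transcripts. Monocyte and macrophage markers (9 of 9 at a mean of at least 1 FPKM, the level per transcript length and sequencing depth) summed to 2879 to 3024 FPKM in CTLA4-Ig libraries and 3064 to 3087 FPKM in control libraries. Markers of neutrophils summed to 42781 to 54560 FPKM in CTLA4-Ig libraries and 28640 to 35314 FPKM in control libraries. Most of this sum was Ngp, at 16330 to 21790 against 9749 to 12960 FPKM, and Camp, at 14060 to 16880 against 7914 to 11890 FPKM. Not all followed: Mpo stood at 603 to 841 against 683 to 734 FPKM and Elane at 840 to 1118 against 929 to 1098 FPKM. Mmp8 was highest in control library 1, at 552.5 FPKM. Of the 12 neutrophil markers matched, 10 had a positive difference and 7 an unadjusted p under 0.05 in limma, and 0 of the 12 stood at 0 in all libraries. Csf1r, the receptor gene that marks monocytes and osteoclast precursors, stood at 140 to 171 FPKM in CTLA4-Ig libraries and 142 to 193 FPKM in control libraries. Of 6 osteoclast markers 2 reached a mean of 1 FPKM, Acp5 at 15.7 to 24.9 FPKM in CTLA4-Ig libraries and 18.1 to 27.0 FPKM in control libraries, and Ctsk at 1.42 to 4.17 FPKM in CTLA4-Ig libraries and 2.05 to 4.98 FPKM in control libraries. The other osteoclast markers, Calcr, Ocstamp, Dcstamp and Atp6v0d2, stayed at or under 0.659 FPKM, and Calcr, Ocstamp and Dcstamp stood at 0 in some libraries. The fragment totals that scale the deposited values, recovered from the low values, were 8570000 to 10500000 in CTLA4-Ig libraries and 8680000 to 9440000 in control libraries. Median-of-ratios size factors of the deposited values were 1.0017 to 1.0037, so libraries were already matched to each other. The recovered totals are thus scaling divisors and need not equal the sequenced depth. In bulk libraries such as these, fewer cells of a type and less RNA per cell cannot be told apart.

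The levels of the 8 genes fell into an order that was nearly the same in all 6 libraries. Sgpl1 and S1pr4 were the highest, with means over all libraries of 42.1 and 36.0 FPKM, followed by Sphk2 at 16.8 FPKM, S1pr2 at 11.2 FPKM and S1pr5 at 6.80 FPKM. S1pr3 at 2.54 FPKM, S1pr1 at 1.03 FPKM and Sphk1 at 0.920 FPKM were the lowest. Among the 16897 genes above 0 in at least 1 library, S1pr4 stood at or above 84.6% of them by mean level, and S1pr1 at or above 35.9%. Neighbours in this order were separated in every library except in 2 cases: Sgpl1 exceeded S1pr4 in 5 of 6 libraries, and S1pr1 exceeded Sphk1 in 4 of 6. The ranges of S1pr2 and S1pr5 overlapped between libraries, although S1pr2 was the higher of the pair within each of the 6.

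**Figure D1:**
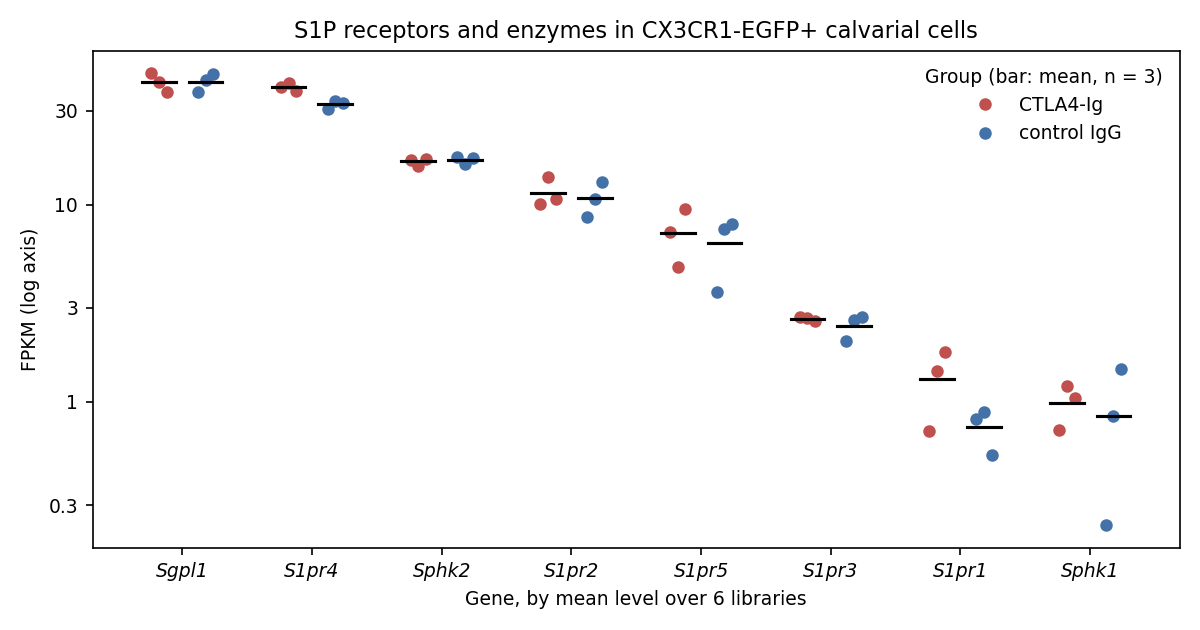
FPKM on a log axis for the 8 genes, ordered by mean level over 6 libraries, with those of CTLA4-Ig to the left and those of control IgG to the right of each position (points, 1 library each; bars, means, n = 3). S1pr4 is the gene whose 2 sets of points do not overlap, at 37.8 to 41.4 FPKM in CTLA4-Ig libraries and 30.6 to 33.6 FPKM in control libraries.

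Most of the receptor transcript in these cells was S1pr4. It made up 65.7, 64.6 and 60.6% of the summed FPKM of the 5 receptors in CTLA4-Ig libraries 1, 2 and 3, and 66.9, 60.7 and 57.4% in control libraries 1, 2 and 3. S1pr2 followed with 16.7 to 23.0% over all libraries, S1pr5 with 7.54 to 15.3%, S1pr3 with 4.14 to 4.71% and S1pr1 with 0.940 to 2.87%. The receptor sum was 62.4 ± 1.79 FPKM in CTLA4-Ig libraries and 52.7 ± 6.12 FPKM in control libraries (SD, n = 3), and the groups, separate as deposited, overlapped after rescaling to equal sums, at 74.5 to 78.6 in CTLA4-Ig libraries and 60.2 to 78.5 in control libraries.

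No gene was called between the groups. In limma with Benjamini-Hochberg adjustment over 10865 genes, 0 of the 7 members that entered the test had an adjusted p under 0.05, as did 0% of all genes tested, and 659 genes had an unadjusted p under 0.05. Sphk1 stayed under the required mean of 1 FPKM and is described by its values. At an unadjusted p under 0.05 stood 1 of 7 members, S1pr4, against 6.07% of all genes tested. Separate ranges were found in 1 of 7, again S1pr4, against 12.2% of all genes tested. Differences below are log2 fold changes of FPKM + 1, CTLA4-Ig minus control IgG, a scale that understates those of low genes. Their signs depend in part on scaling. The deposited values had a median over all genes of -0.0063, and 444 of the 659 genes under an unadjusted p of 0.05 were higher. By median of ratios the deposited values needed almost no further scaling, with size factors of 1.0017 to 1.0037. With each library rescaled to the same sum, the median was -0.13, 1768 of all 10865 genes were positive, and 122 of the 1631 under an unadjusted p of 0.05 were higher. The neutrophil genes S100a8 and S100a9 made up 17.1 to 21.9% of that sum in CTLA4-Ig libraries and 14.2 to 15.9% in control libraries. Of the 7 members 5 were positive as deposited and 3 after rescaling, S1pr2 and S1pr3 turning negative.

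S1pr4 is a receptor found mainly on blood and immune cells. Its gene (chromosome 10, 81497745 to 81500137, GRCm38) stood at 39.8, 41.4 and 37.8 FPKM in CTLA4-Ig libraries 1, 2 and 3, against 30.6, 33.6 and 32.7 FPKM in control libraries 1, 2 and 3. Every CTLA4-Ig library lay above every control library. The mean was 39.7 ± 1.80 FPKM in CTLA4-Ig libraries and 32.3 ± 1.58 FPKM in control libraries (SD, n = 3). Their log2 fold change of 0.29 ± 0.06 (SE; 95% interval 0.14 to 0.44) had the 29th smallest p of 10865 genes in limma, under 0.05 before adjustment, and with an adjusted p of 0.720 it was not called. On a linear scale the interval of FPKM + 1 ran from 1.10-fold to 1.36-fold. Rescaled to equal sums, the log2 fold change was 0.16 ± 0.08 (SE; limma adjusted p = 0.359, and above 0.05 also before adjustment), against the median of -0.13 over all genes, and the groups stayed apart by a small margin, 45.1 to 51.6 in CTLA4-Ig libraries and 40.2 to 45.0 in control libraries.

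These S1pr4 values rest on many fragments. Low FPKM values are spaced by what 1 fragment is worth, and whole fragment numbers could be read back for 6 of the 8 genes. S1pr4 had 868, 851 and 949 fragments in CTLA4-Ig libraries 1, 2 and 3, against 636, 761 and 709 in control libraries 1, 2 and 3. Counting error alone would give a coefficient of variation of 3.36% in CTLA4-Ig libraries and 3.78% in control libraries, and the measured values were 4.53% and 4.90%. The spread between S1pr4 replicates was therefore little above counting error, which is a lower bound because duplicates from PCR are not independent molecules. Limma-voom, a version of the test that weights each fragment number by its precision, gave S1pr4 a log2 fold change of 0.29 ± 0.07 (SE), and an adjusted p of 0.582 over the 7133 genes recovered.

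**Figure D2:**
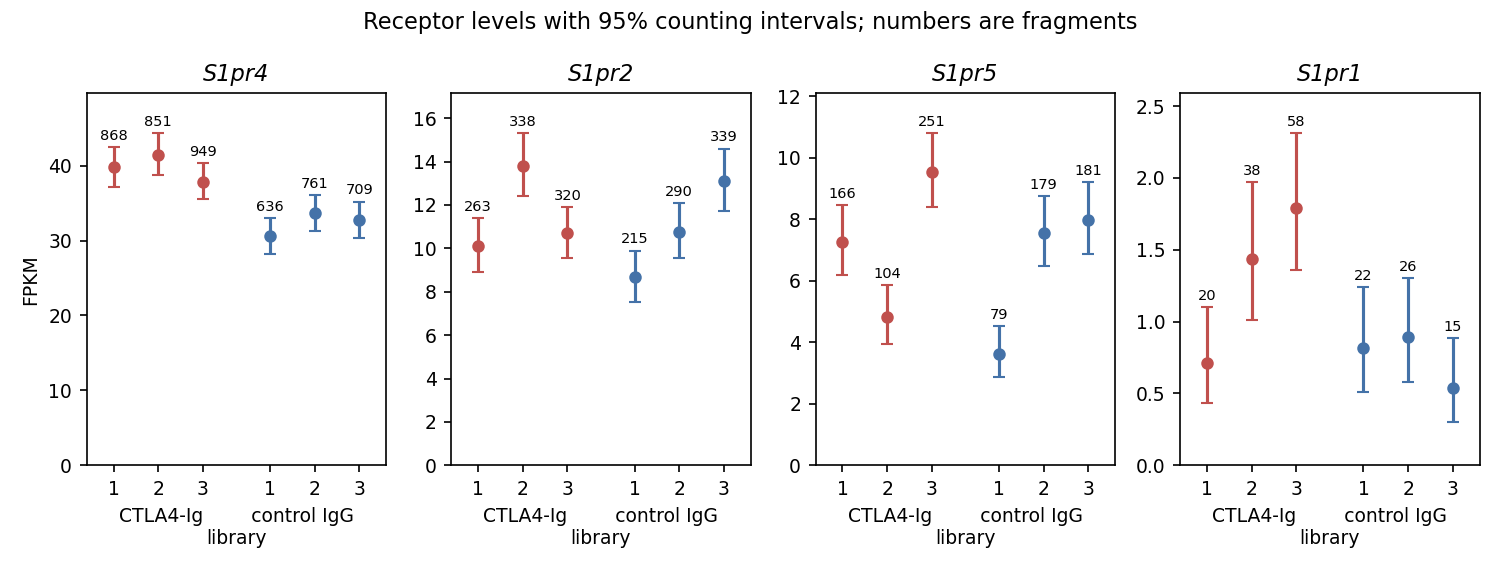
FPKM of S1pr4, S1pr2, S1pr5 and S1pr1 in each library, with exact Poisson 95% intervals that cover counting error only and the recovered fragment number above each point. S1pr4 rests on 636 to 949 fragments per library and S1pr1 on 15 to 58.

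The S1pr4 difference came in the libraries in which the neutrophil marker sum was also higher, and the part of neutrophils in it was not tested. Over the 6 libraries the mean log2 level of the 12 neutrophil markers had Pearson's r = 0.769 with S1pr4 (exact permutation p = 0.0778) and Spearman's rho = 0.771 (exact permutation p = 0.103), adjusted over 104 relations to 0.506 and 0.822. Without the 2 libraries farthest from the median r was 0.694. Set against Sgpl1 in the same library, which needs no scaling between libraries, S1pr4 was 0.857, 0.982 and 1.01 times as high in CTLA4-Ig libraries 1, 2 and 3, and 0.820, 0.784 and 0.707 times in control libraries 1, 2 and 3. The genes whose level followed S1pr4 most closely, among those with a mean of at least 10 FPKM, were Chst12 (r = 0.988 over 6 libraries), the integrin β2 gene Itgb2 (r = 0.988) and Brd3 (r = 0.987). Here and below, the closest genes are the highest of many r values over only 6 libraries. A high r was thus built into their choice, and links to them were not tested. Itgb2 stood at 415, 433 and 409 FPKM in CTLA4-Ig libraries 1, 2 and 3, against 352, 375 and 357 FPKM in control libraries 1, 2 and 3.

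S1pr1, the receptor that draws cells towards S1P, was close to the lower limit of these libraries. Its gene (chromosome 3, 115710433 to 115715055) stood at 0.710, 1.43 and 1.79 FPKM in CTLA4-Ig libraries 1, 2 and 3, against 0.819, 0.890 and 0.536 FPKM in control libraries 1, 2 and 3. CTLA4-Ig libraries 2 and 3 lay above all controls, and CTLA4-Ig library 1 lay among them. The underlying numbers were 20, 38 and 58 fragments in CTLA4-Ig libraries and 22, 26 and 15 in control libraries. The log2 fold change was 0.38 ± 0.21 (SE; 95% interval -0.13 to 0.88), with a limma adjusted p of 0.870. Neither no difference nor an increase of 1.85-fold in FPKM + 1 lies outside the interval. The coefficient of variation was 42.0% in CTLA4-Ig libraries and 25.1% in control libraries, against 17.7% and 22.4% from counting error. Because S1pr1 is near the pseudocount of 1, its estimate was larger where a smaller one was used, 0.67 ± 0.41 (SE) at 0.1, and it was 0.74 ± 0.39 (SE) in limma-voom on fragments. It was 0.23 without CTLA4-Ig library 3 and 0.58 without CTLA4-Ig library 1. The closest genes over the 6 libraries were Abcc4, a transporter of prostaglandins and cyclic nucleotides (r = 0.982), G6pc3 (r = 0.968) and Tuba8 (r = 0.964).

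S1pr1 also followed the neutrophil markers, whose sum was higher in CTLA4-Ig libraries. Pearson's r with their mean log2 level was 0.832 (exact permutation p = 0.0389) and Spearman's rho was 0.714 (exact permutation p = 0.136), adjusted over 104 relations to 0.337 and 0.833, and r was 0.733 without the 2 libraries farthest from the median. With the monocyte and macrophage markers r was -0.763 (exact permutation p = 0.0653) and rho was -0.886 (exact permutation p = 0.0333), adjusted to 0.501 and 0.578, and r was -0.71 without the 2 farthest libraries. Other lists had positive values with S1pr1 at an unadjusted p above 0.05. Mast cells and basophils had r = 0.785 (exact permutation p = 0.0708) and rho = 0.771 (exact permutation p = 0.103), adjusted to 0.501 and 0.822. Platelets had r = 0.657 (exact permutation p = 0.151) and rho = 0.829 (exact permutation p = 0.0583), adjusted to 0.678 and 0.607. Other members had smaller p-values with other lists. S1pr2 had r = 0.927 with osteoblast and stroma markers (exact permutation p = 0.00972), and Sgpl1 r = 0.906 with B cell markers (exact permutation p = 0.0139), both adjusted to 0.289. Without the 2 farthest libraries r was 0.836 for S1pr2 and 0.481 for Sgpl1. Both lists were near the floor, with 1 of 5 osteoblast and stroma markers and 2 of 6 B cell markers at a mean of at least 1 FPKM. The part of any of these cells in the S1pr1 values, and in the ratio of S1pr2 to S1pr1, was not tested.

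S1pr2, the receptor for repulsion from S1P, was the second receptor by level. Its gene (chromosome 9, 20965952 to 20976793) stood at 10.1, 13.8 and 10.7 FPKM in CTLA4-Ig libraries 1, 2 and 3, against 8.66, 10.7 and 13.1 FPKM in control libraries 1, 2 and 3. The groups overlapped almost fully. The log2 fold change was 0.09 ± 0.17 (SE; 95% interval -0.31 to 0.48; limma adjusted p = 0.958), and its sign turned without CTLA4-Ig library 2 (-0.038) or control library 1 (-0.051). Its coefficient of variation, 17.2% in CTLA4-Ig libraries and 20.5% in control libraries, was well above the 5.74% and 6.07% that counting error gives. The closest genes over the 6 libraries were Rn45s, a ribosomal RNA gene (r = 0.979), Zfp652 (r = 0.973) and Arfgap1 (r = 0.971).

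The transcript of the repelling receptor exceeded that of the attracting one in every library. Receptor protein was not measured, and in mixed cells the 2 transcripts may lie in different cells, so their ratio is not that of a precursor. S1pr2 was 14.2, 9.62 and 5.97 times as high as S1pr1 in CTLA4-Ig libraries 1, 2 and 3, and 10.6, 12.1 and 24.5 times as high in control libraries 1, 2 and 3. The groups overlapped, with means of 9.94 ± 4.14 in CTLA4-Ig libraries and 15.7 ± 7.62 in control libraries (SD, n = 3). The extreme ratios, 5.97 in CTLA4-Ig library 3 and 24.5 in control library 3, were those with the most and the fewest S1pr1 fragments, 58 and 15.

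S1pr5, a receptor known in mice for the exit of natural killer cells and non-classical monocytes from bone marrow, varied most from library to library among the receptors with more than 1 FPKM in all libraries. Its gene (chromosome 9, 21242917 to 21248443) stood at 7.27, 4.84 and 9.56 FPKM in CTLA4-Ig libraries 1, 2 and 3, against 3.63, 7.56 and 7.97 FPKM in control libraries 1, 2 and 3. The lowest library was control library 1 and the highest CTLA4-Ig library 3, and the groups overlapped. Its log2 fold change was 0.17 ± 0.31 (SE; 95% interval -0.56 to 0.91; limma adjusted p = 0.957), and the sign turned without control library 1 (-0.13) or CTLA4-Ig library 3 (-0.028), and with array weights (-0.046). With 79 to 251 fragments per library, counting error gives a coefficient of variation of 8.09% in CTLA4-Ig libraries and 8.90% in control libraries, against measured values of 32.7% and 37.6%.

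The libraries with more S1pr5 were those with more non-classical monocyte transcripts. Ranked by S1pr5 and by the mean log2 level of 8 non-classical monocyte markers (Nr4a1, Ace, Treml4, Spn, Itgal, Cd300e, Eno3 and Fabp4), the 6 libraries came in the same order. Pearson's r was 0.960 (exact permutation p = 0.00139, the smallest that 6 libraries allow) and Spearman's rho was 1.0 (exact permutation p = 0.00278). Adjusted over 104 relations of 8 genes with 13 marker lists, these p-values became 0.144 for r and 0.289 for rho. With 6 libraries even a perfect agreement of 1 list could not pass this adjustment alone, so it cannot decide the question. Without the 2 libraries farthest from the median r was 0.842. The gene closest to S1pr5 was Spn, which encodes the sialomucin CD43 and is itself one of the 8 markers, with r = 0.996 over 6 libraries, followed by Hpgd and Tspan13 with r = 0.994 and 0.993. Picked as the highest of many r values, these genes give no separate support to the marker relation. Spn stood at 140, 122 and 160 FPKM in CTLA4-Ig libraries 1, 2 and 3, against 106, 142 and 149 FPKM in control libraries 1, 2 and 3.

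Other marker lists followed S1pr5 as well. Of the 13 lists, 5 had an unadjusted p under 0.05 for r with S1pr5: besides non-classical monocytes these were the endothelial list (r = 0.915), dendritic cells (r = 0.880), the erythroid list (r = 0.858) and T cells (r = 0.835). After adjustment 0 of 13 passed, a step that no single relation over 6 libraries could pass alone. The NK cell list had r = 0.583 (exact permutation p = 0.214; adjusted 0.780). The summed level of the 8 non-classical markers was 327 to 430 FPKM in CTLA4-Ig libraries and 261 to 392 FPKM in control libraries, so it overlapped between the groups as S1pr5 did. The endothelial sum was 18.6 to 23.5 FPKM in CTLA4-Ig libraries and 16.1 to 20.6 FPKM in control libraries. Only 2 of the 7 endothelial markers reached a mean of 1 FPKM, and Emcn stood at 0 in some libraries. Most of the endothelial sum was Pecam1, at 14.55 to 18.69 FPKM in CTLA4-Ig libraries and 12.81 to 16.03 FPKM in control libraries. The dendritic cell sum was 38.8 to 55.5 FPKM in CTLA4-Ig libraries and 50.4 to 65.1 FPKM in control libraries. In both lists 0 markers stood at 0 in all libraries. T cell markers summed to 10.6 to 15.0 FPKM in CTLA4-Ig libraries and 8.999 to 18.8 FPKM in control libraries, and erythroid markers to 29.4 to 38.6 FPKM in CTLA4-Ig libraries and 4.96 to 49.3 FPKM in control libraries. The dendritic cell list was split in control library 1, which had the lowest S1pr5. There Flt3 and Xcr1 were at their highest, 46.65 and 0.841 FPKM. Siglech, Zbtb46 and Clec9a were at their lowest there, 16.02, 0.703 and 0.907 FPKM. The dendritic cell sum was thus highest in that library, at 65.1 FPKM, although r of the mean log2 level was positive. The part of the cells of these lists in the S1pr5 values was not tested.

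**Figure D3:**
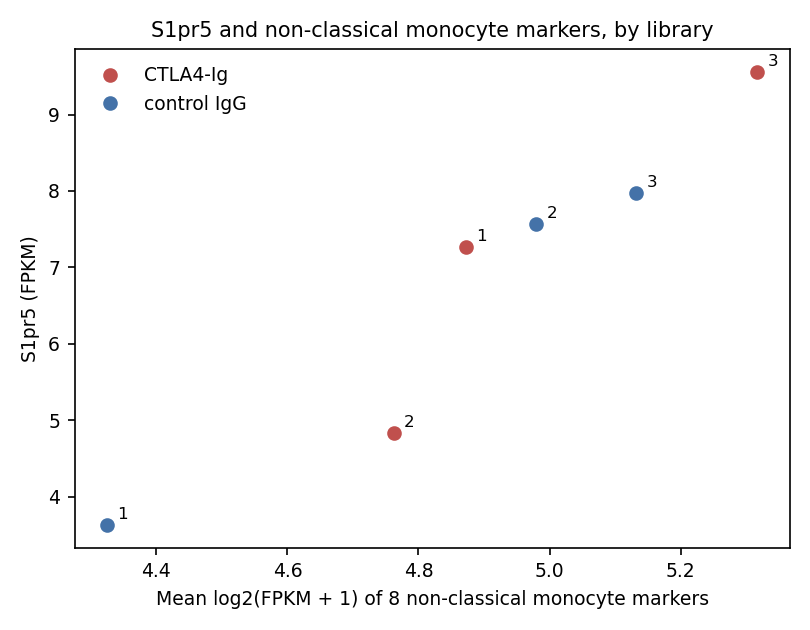
S1pr5 in FPKM against the mean log2(FPKM + 1) of 8 non-classical monocyte markers, 1 point per library with its library number, CTLA4-Ig and control IgG in separate colours. The libraries of both groups come in the same order on both axes, the lowest S1pr5 value, 3.63 FPKM, being control library 1 and the highest, 9.56 FPKM, CTLA4-Ig library 3.

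S1pr3, which couples to several G protein classes, was low. Its gene (chromosome 13, 51408618 to 51422797) stood at 2.69, 2.66 and 2.59 FPKM in CTLA4-Ig libraries 1, 2 and 3, against 2.04, 2.60 and 2.69 FPKM in control libraries 1, 2 and 3. Control library 1 was the lowest, as for S1pr2, S1pr4, S1pr5, Sphk1 and Sgpl1, and for S1pr3 the other libraries lay together. This library also stood apart in markers. Flt3 was at 46.65 FPKM against 15.82 to 24.25 in the others, Hba-a1 at 3.567 against 23.09 to 41.28, and Cx3cr1 at 12.31 against 16.64 to 32.51. Without control library 1 the S1pr3 log2 fold change was 0.0018. With all libraries the log2 fold change was 0.09 ± 0.11 (SE; 95% interval -0.18 to 0.36; limma adjusted p = 0.928). The CTLA4-Ig libraries differed by 2.06% (coefficient of variation), less than the 9.29% counting error gives. The closest genes were Fut7, whose fucosyltransferase makes selectin ligands (r = 0.996), Ptplad2 (r = 0.995) and E130306D19Rik (r = 0.993). Fut7 stood at 21.4, 21.5 and 19.9 FPKM in CTLA4-Ig libraries 1, 2 and 3 and 11.4, 21.1 and 21.9 FPKM in control libraries 1, 2 and 3.

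Sgpl1, the lyase that ends the S1P signal, did not differ by more than the spread between libraries. Its gene (chromosome 10, 61098642 to 61147684) stood at 46.4, 42.2 and 37.4 FPKM in CTLA4-Ig libraries 1, 2 and 3, against 37.2, 42.9 and 46.2 FPKM in control libraries 1, 2 and 3. Both groups covered the same range. The log2 fold change was -0.0042 ± 0.11 (SE; 95% interval -0.26 to 0.25; limma adjusted p = 0.999), and its sign turned without CTLA4-Ig library 3 (0.074), control library 2 (0.012) or control library 3 (0.064). The interval of FPKM + 1 ran from 0.836-fold to 1.19-fold, and 1389 to 1814 fragments per library stood behind each value. The spread of 10.7% in CTLA4-Ig libraries and 10.8% in control libraries exceeded the 2.44% and 2.48% that counting gives. Ruvbl1 (r = 0.992), Emg1 (r = 0.987) and the mechanosensitive channel gene Fam38a (Piezo1; r = 0.982) were the closest genes. Rescaled to equal sums its log2 fold change was -0.14, near the median over all genes.

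Sphk2, the kinase that acts mainly in the nucleus and on inner membranes, had the higher FPKM of the kinase genes in every library, a value that an overlapping gene makes uncertain. Its gene (chromosome 7, 45709463 to 45718002) stood at 16.9, 15.8 and 17.1 FPKM in CTLA4-Ig libraries 1, 2 and 3, against 17.4, 16.1 and 17.4 FPKM in control libraries 1, 2 and 3. As deposited it made up 92.9 to 95.9% of the summed kinase FPKM in CTLA4-Ig libraries and 92.2 to 98.7% in control libraries. The log2 fold change was -0.028 ± 0.065 (SE; 95% interval -0.18 to 0.13; limma adjusted p = 0.976), and 0.0056 without CTLA4-Ig library 2. Rescaled to equal sums it was -0.16. The interval of FPKM + 1, 0.881-fold to 1.09-fold, was the narrowest on the log scale after that of S1pr4.

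The Sphk2 values are uncertain because of a neighbour. In the GENCODE annotation 373 exon bases of Sphk2 overlap, on the opposite strand, the exons of the ribosomal protein gene Rpl18, which stood at 1117, 1046 and 1164 FPKM in CTLA4-Ig libraries 1, 2 and 3 and 1241, 1050 and 1158 FPKM in control libraries 1, 2 and 3. Sphk2 also shares 539 exon bases with Dbp on the opposite strand, but Dbp stood at 0.948 to 1.36 FPKM in CTLA4-Ig libraries and 0.714 to 1.38 FPKM in control libraries. Over the 6 libraries Sphk2 and Rpl18 had Pearson's r = 0.936 (exact permutation p = 0.00417) and Spearman's rho = 0.943 (exact permutation p = 0.0167), a pair looked at after the overlap was seen, and r was 0.967 without the 2 libraries farthest from the median. The library kit keeps strand, but no source used here says whether counting kept it. How much of the Sphk2 value is Rpl18 was not tested. The genes closest to Sphk2 by the common rule were Wdr74 (r = 0.991), Fez2 (r = 0.991) and Selenbp1 (r = 0.978).

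**Figure D4:**
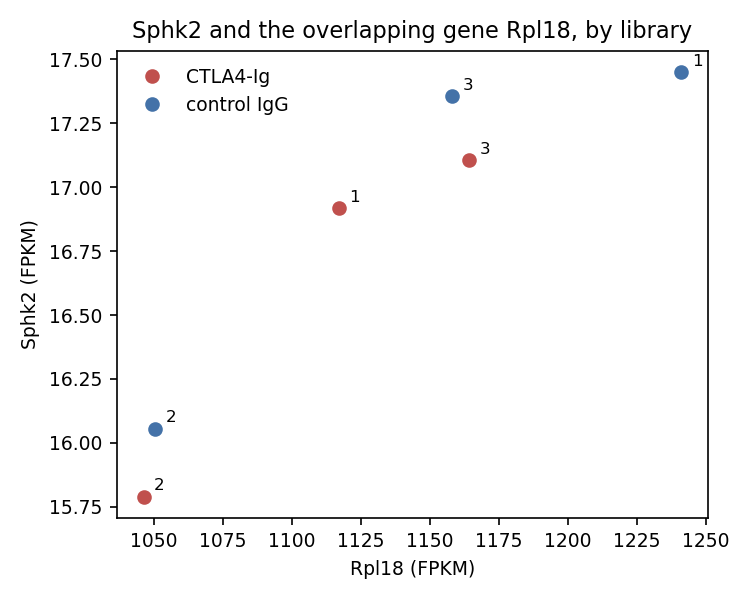
Sphk2 against the overlapping ribosomal protein gene Rpl18, both in FPKM, 1 point per library with its library number. Both genes are lowest in CTLA4-Ig library 2, at 15.8 and 1046 FPKM, and highest in control library 1, at 17.4 and 1241 FPKM; neither axis starts at 0.

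Sphk1, the cytosolic kinase that growth factors and inflammatory signals activate, was barely detected. Its gene (chromosome 11, 116530836 to 116536675) stood at 0.719, 1.20 and 1.05 FPKM in CTLA4-Ig libraries 1, 2 and 3, against 0.237, 0.853 and 1.46 FPKM in control libraries 1, 2 and 3. The controls held both the lowest and the highest value. That corresponds to 6.54 to 11.0 fragments per kilobase of transcript in CTLA4-Ig libraries and 2.06 to 13.2 in control libraries, and the difference was within this spread. The mean difference on the log2 scale was 0.15, and -0.11 without control library 1. The deposited FPKM of Sgpl1 over the sum of both kinase genes was 2.39 ± 0.295 in CTLA4-Ig libraries and 2.37 ± 0.230 in control libraries (SD, n = 3), and the groups overlapped. That sum is mostly the Sphk2 value, so the ratio carries the same uncertainty.

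Other genes of S1P and sphingolipid metabolism and of S1P receptor signalling were read from lists made by role. Of the 65 listed genes 51 reached a mean of 1 FPKM, and 0 were called. Of these 26 had a positive and 25 a negative difference, with a median log2 fold change of 0.0055, where all 10865 genes had a median of -0.0063 and 47.7% positive. At an unadjusted p under 0.05 in limma, 3 were higher and 1 lower, against 4.09% higher and 1.98% lower of all genes. After rescaling to equal sums 7 of the 51 were positive and 44 negative, with a median of -0.13, that of all genes. As deposited, in 5 of the 51 the CTLA4-Ig libraries all lay above the controls and in 3 all below, against 6.50% and 5.69% of all genes.

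Genes that form and clear the sphingosine backbone ranged widely in level. Sgpp1, an S1P phosphatase, stood at 37.9 ± 1.63 FPKM in CTLA4-Ig libraries and 36.4 ± 0.852 FPKM in control libraries (SD, n = 3), and its counterpart Sgpp2 stayed at or under 0.416 FPKM. Ppap2c, a lipid phosphatase gene (Plpp2), stood at 5.25 ± 1.09 FPKM in CTLA4-Ig libraries and 5.77 ± 1.80 FPKM in control libraries. Asah1, the lysosomal acid ceramidase that frees sphingosine, stood at 112, 111 and 110 FPKM in CTLA4-Ig libraries 1, 2 and 3 against 134, 113 and 121 FPKM in control libraries 1, 2 and 3. Each CTLA4-Ig library lay below each control, with a log2 fold change of -0.14 ± 0.07 (SE; limma adjusted p = 0.853). Acer3, an alkaline ceramidase, stood at 23.7 ± 1.64 FPKM in CTLA4-Ig libraries and 24.7 ± 0.418 FPKM in control libraries (SD, n = 3), and 0 of the 3 ceramidase genes tested were positive. Degs1, which makes ceramide from dihydroceramide, stood at 153 ± 5.57 FPKM in CTLA4-Ig libraries and 145 ± 5.78 FPKM in control libraries (SD, n = 3). Sptlc1, a subunit of the enzyme that starts sphingolipid synthesis, stood at 19.6 ± 0.365 FPKM in CTLA4-Ig libraries and 21.8 ± 1.55 FPKM in control libraries, without overlap. Of the 12 ceramide synthesis genes tested 5 were positive and 7 negative, and after rescaling 0 were positive. The ceramide synthase gene Lass6 (Cers6) was the 1 gene of this list with an unadjusted p under 0.05 in limma. It stood at 33.5 ± 1.84 FPKM in CTLA4-Ig libraries and 38.3 ± 3.20 FPKM in control libraries (log2 fold change -0.19 ± 0.08, SE; limma adjusted p = 0.817), and Lass2 (Cers2) at 99.9 ± 5.46 FPKM in CTLA4-Ig libraries and 105 ± 3.76 FPKM in control libraries.

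The exporters of S1P that were tested stood below the lyase. Abcc1, a transporter that can export S1P, stood at 11.3 ± 1.33 FPKM in CTLA4-Ig libraries and 11.9 ± 1.53 FPKM in control libraries (SD, n = 3). Spns2, the exporter of endothelial cells, stood at 3.29 ± 0.840 FPKM in CTLA4-Ig libraries and 2.87 ± 0.169 FPKM in control libraries, and Mfsd2b, that of red cells and platelets, at 1.51 ± 0.194 FPKM in CTLA4-Ig libraries and 1.29 ± 0.462 FPKM in control libraries. Of the 4 genes tested in this list 3 were positive, and 0 had an unadjusted p under 0.05 in limma. In the list of sphingomyelin, glucosylceramide and ceramide phosphate enzymes 2 of 8 were positive, and after rescaling 0 were. Smpd1, the acid sphingomyelinase, was at 17.4 ± 0.648 FPKM in CTLA4-Ig libraries and 16.1 ± 0.490 FPKM in control libraries, without overlap as deposited and with overlap after rescaling. Smpd2 stood at 9.47 ± 1.32 FPKM in CTLA4-Ig libraries and 10.8 ± 0.572 FPKM in control libraries, and the ceramide kinase gene Cerk at 24.4 ± 0.825 FPKM in CTLA4-Ig libraries and 24.6 ± 1.74 FPKM in control libraries.

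Several genes that act below the receptors were abundant. Gnai2, the inhibitory G protein α subunit through which S1P receptors steer leukocytes, stood at 663 ± 21.4 FPKM in CTLA4-Ig libraries and 619 ± 13.2 FPKM in control libraries (SD, n = 3), without overlap. Rac2, the Rac GTPase of blood cells, stood at 370, 423 and 382 FPKM in CTLA4-Ig libraries 1, 2 and 3 against 333, 321 and 325 FPKM in control libraries 1, 2 and 3, a log2 fold change of 0.26 ± 0.07 (SE; limma adjusted p = 0.720). Gnai3 stood at 89.5 ± 3.52 FPKM in CTLA4-Ig libraries and 83.5 ± 2.27 FPKM in control libraries, also without overlap. Of 12 coupling genes tested 8 were positive and 4 negative, with a median log2 fold change of 0.029. After rescaling to equal sums 1 was positive, Rac2 at 0.12, while Gnai2 and Gnai3 were at -0.039 and -0.036. The neutrophil marker sum was higher in the same 3 CTLA4-Ig libraries, and the part of neutrophils in these values was not tested.

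Of the 10 genes that set receptor transcription or switch the receptors off, 7 were positive and 3 negative, with a median log2 fold change of 0.078, and after rescaling 4 were positive, Arrb2 at 0.20 and Klf2 at 0.18 among them. Arrb2, a β-arrestin that ends receptor signalling, stood at 215, 263 and 242 FPKM in CTLA4-Ig libraries 1, 2 and 3 against 212, 189 and 171 FPKM in control libraries 1, 2 and 3. The log2 fold change was 0.33 ± 0.10 (SE; limma adjusted p = 0.720). Klf2, a transcription factor that drives S1pr1 in mouse lymphocytes, stood at 50.9, 57.3 and 54.1 FPKM in CTLA4-Ig libraries 1, 2 and 3 against 42.9, 36.4 and 51.8 FPKM in control libraries 1, 2 and 3, with overlap between CTLA4-Ig library 1 and control library 3. Its log2 fold change was 0.32 ± 0.13 (SE; limma adjusted p = 0.793). Adrbk1, the receptor kinase GRK2, stood at 230 ± 14.5 FPKM in CTLA4-Ig libraries and 205 ± 16.6 FPKM in control libraries (SD, n = 3).

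**Figure D5:**
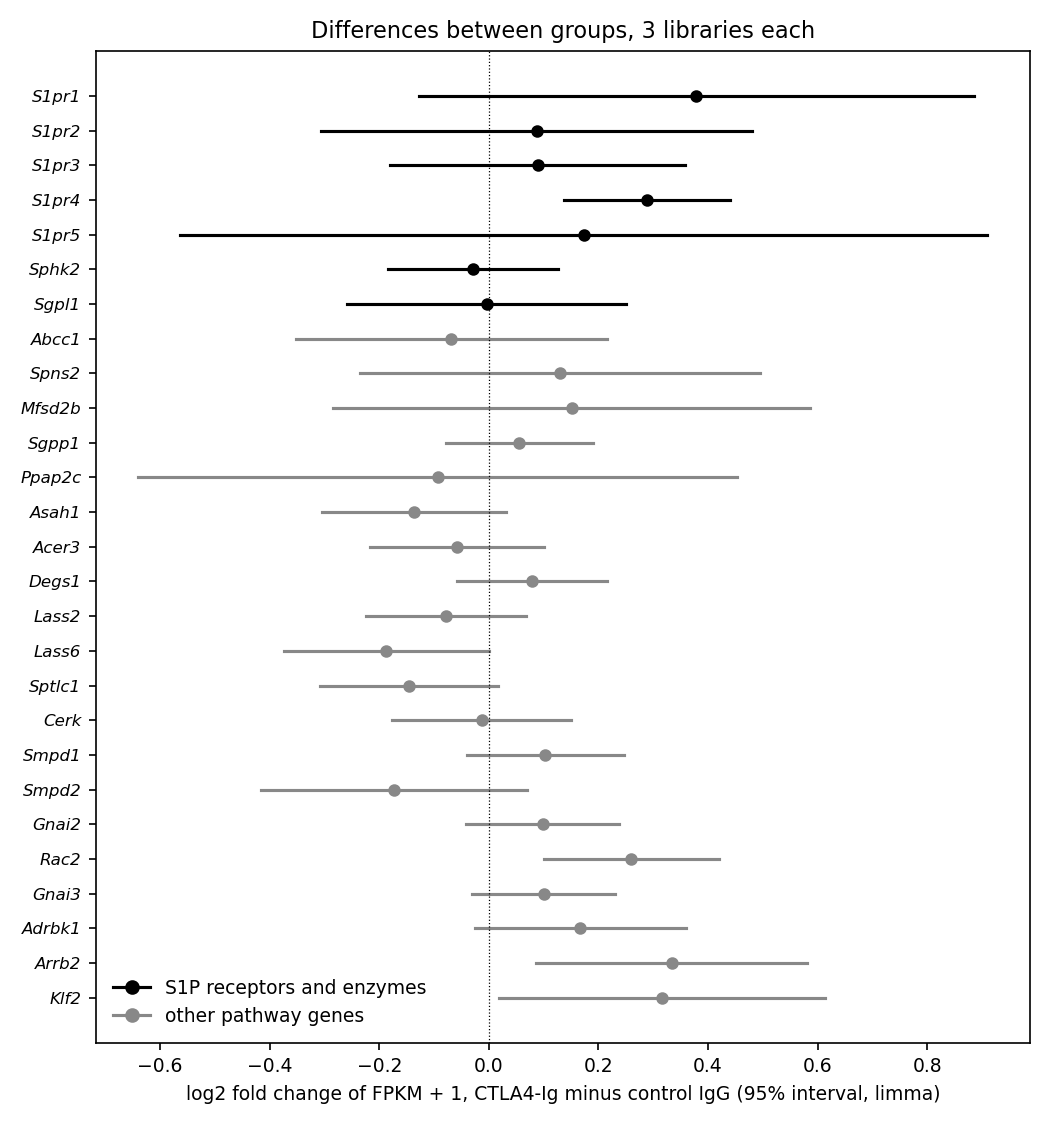
Log2 fold changes of FPKM + 1, CTLA4-Ig minus control IgG, with 95% intervals from limma, for the 7 members tested (black) and the pathway genes named in the text (grey). The interval of S1pr4, 0.14 to 0.44, lies above 0 before adjustment for the 10865 genes tested, as do those of Rac2, Arrb2 and Klf2, that of Lass6 lies just below 0, and 0 of them passed after it. Rescaled to equal sums, S1pr4 had an unadjusted limma p of 0.103.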

How the data were processed

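RNA was sequenced from 6 libraries, 3 per group, grouped by the treatment label. The submitters' processing notes name Cuffnorm 2.2.1, SAMtools 0.1.19, Bowtie2 2.2.3 and TopHat2 2.0.13 and the build mm10, with no settings, annotation or strand use. The authors deposited FPKM, used here on their scaling. Limma 3.58.1 (R 4.3.3; lmFit, eBayes with trend) was run on log2(FPKM + 1) for every gene averaging 1 FPKM or more, with Benjamini-Hochberg adjustment and a threshold of 0.05. The fold changes of the test were checked on simulated normal data. That check set no requirement on how many genes were called.

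The relative scaling divisor of a library, used as its depth, was the most frequent ratio between libraries among low values. Fragment numbers were the smallest whole numbers that fit a gene's 6 values within 0.02. Fragment numbers came out whole for 9198 of 11576 genes (79.5%) above 0 in all libraries and under a mean of 60 FPKM. Their absolute size rests on 559 genes with 1 GENCODE transcript. They served for precision and an added limma-voom test. Intervals cover counting error only. Python 3.11.15, scipy 1.17.1 and matplotlib 3.10.9 were used. Coordinates are RefSeq GRCm38.p6.

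Members and lists were chosen with earlier results of these data known. Named were the members, the 2 highest pathway genes and the 2 with the smallest p per list. The 3 genes most alike to each member tested (mean of at least 10 FPKM) were named too. The first marker of each list was also to be named, and only some were. Sgpp2, S100a8, S100a9, Rpl18 and Dbp were added after their values were seen. So were the markers given with values that this rule does not name. One pathway gene that the rule names is not reported here. Genes of the lists were matched by symbol or older symbol; 2 markers, Ly6g and Hbb-bt, were not analysed here. The alternatives were other pseudocounts, filters, scalings and variance settings, leaving 1 library out in turn, and a replicate block. List counts after rescaling were added after seeing the data.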

Additional observations from a re-analysis of the deposited data

How the results depend on the processing

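S1pr4 and S1pr1 kept a positive difference under all of the alternatives that gave a value, 18 for S1pr4 and 17 for S1pr1, and none of the 8 genes was called under any alternative that tested it. Sphk1 was tested only without the filter, and neither Sphk1 nor Sphk2 in limma-voom. S1pr4 ranged from 0.25 to 0.32 with 1 library left out and stood at 0.16 after rescaling each library to equal sums. That rescaling moved the median of all genes by -0.13 against -0.0063 as deposited, and turned S1pr2 to -0.040 and S1pr3 to -0.0097. Array weights, which give less weight to libraries that vary more, turned S1pr5 to -0.046. Control library 1 had the lowest weight, 0.372, against 0.876 to 1.97 in the other libraries. With 1 library left out S1pr1 ranged from 0.23 to 0.58, S1pr2 from -0.051 to 0.22, S1pr3 from 0.0018 to 0.14, S1pr5 from -0.13 to 0.40, Sphk1 from -0.11 to 0.39, Sphk2 from -0.065 to 0.0056 and Sgpl1 from -0.088 to 0.074. The cause of these turns was not tested. The number of genes called, 0 with all libraries, was 12 with no filter on low values and 0 to 6 with 1 library left out (6 without CTLA4-Ig library 3, 0 without control library 1); limma-voom on fragments, added after seeing the data, called 0. The 659 genes with an unadjusted p under 0.05 became 347 without CTLA4-Ig library 2. A mean of at least 5 FPKM leaves out S1pr1, S1pr3 and Sphk1. Same-numbered libraries did not deviate together (r = -0.154, -0.0942 and -0.0235). These r values cannot decide whether the libraries were paired, because pairing need not leave a shared deviation, and the labels do not state it. A replicate block left 0 genes called and gave S1pr4 a log2 fold change of 0.29, with a limma adjusted p of 0.711. S1pr1 rests on 15 to 58 fragments per library, and its spread in CTLA4-Ig libraries, 42.0%, exceeded the 17.7% that counting gives; for Sphk1 and Sphk2 no fragment numbers were recovered.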
